A study of Mus musculus with 12 samples.

Results

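The genes described here are 10 antioxidant genes tied to the transcription factor NRF2: Nfe2l2, which encodes NRF2 itself, Keap1, Nqo1, Gclc, Gclm, Txnrd1, Srxn1, Gsr, Prdx1 and G6pdx. They were taken by name, by a rule that used no measured value, though earlier results of these data were known when they were chosen. All 10 were present among the 10697 genes of the expression table.

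Transcripts were measured in primary mouse adult fibroblasts (MAFs), cells that grew out of cut biopsies from wild-type C57BL6/j mice in serum-supplemented DMEM. In the treated group, thymol, a monoterpene phenol of thyme and oregano dissolved in DMSO, was present at 100 µM for 24 h (n = 6 libraries). The control group received the same volume of DMSO (n = 6), so that the solvent was common to both groups, as were strain, genotype and culture. The labels named neither the tissue biopsied nor the number of mice, and nothing said that the libraries came from separate cultures. The p-values and intervals therefore measure only the spread between these samples, which may be technical.

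NRF2 is held in the cytoplasm by KEAP1, which presents it to a CUL3 ubiquitin ligase for degradation. Electrophiles and oxidants that modify cysteines of KEAP1 spare NRF2 from this fate. NRF2 then enters the nucleus, where it pairs with a small MAF partner and binds antioxidant response elements. These are short motifs near genes for glutathione and thioredoxin metabolism, quinone reduction and NADPH supply. Phenols that can be oxidised to quinones are classic inducers of these genes, and the comparison bounds how far each of the 10 moved under a phenol.

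The core of the antioxidant response element, TGACNNNGC, was searched on both strands of the RefSeq promoter windows on GRCm38.p6, which run from 250 bases before to 50 bases after each annotated start. Windows were found for 8 of the 10 genes (10 windows in all) and for neither Gclc nor Gsr. The core was read in 6 of these 10 windows, each in a different gene, against 12.4% of all 32851 windows and 14.3% of the 10983 windows of genes in the expression table. The AP-1 motif TGANTCA, which overlaps the core in TGACTCAGC, was in 2 of the 10 windows and in 7.81% of all windows. The 6 stretches are shown because they hold the letters NRF2 is known to bind, and the core stands in capitals on the strand that carries it.
Nfe2l2 (chr2:75704885-75704913, minus strand): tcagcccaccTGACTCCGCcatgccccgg
Gclm (chr3:122245413-122245441, minus strand): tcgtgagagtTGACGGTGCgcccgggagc
Txnrd1 (chr10:82859104-82859132, minus strand): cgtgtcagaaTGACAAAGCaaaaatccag
Srxn1 (chr2:152105542-152105570, minus strand): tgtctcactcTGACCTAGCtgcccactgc
Prdx1 (chr4:116685456-116685484, minus strand): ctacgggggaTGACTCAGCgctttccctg
G6pdx (chrX:74428919-74428947, plus strand): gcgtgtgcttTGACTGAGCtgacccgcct

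The middle of the core lay 236 bases before the annotated start of Nfe2l2, 130 before that of Gclm, 129 before that of Prdx1, 88 before that of Txnrd1 and 53 before that of G6pdx, while in Srxn1 it lay 32 bases after the start. In GENCODE vM21 the Gclm and Prdx1 stretches were intergenic. The Txnrd1 stretch lay in an intron of the gene, because 1 annotated transcript starts further upstream. The Srxn1 and G6pdx stretches overlapped the first exon of a transcript, in untranslated sequence. The Nfe2l2 stretch fell in an exon of the divergent transcript E030042O20Rik. Among the 6 stretches, Prdx1 alone carried TGACTCAGC, a sequence present in 0.454% of all windows. A match of letters is a description of the window and not a measured binding site.

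None of the 10 genes passed the test for a change with thymol (limma, adjusted p under 0.05 over all genes), and none had an unadjusted p under 0.05 in limma or in voom on recovered reads. Over all genes, 2.22% passed this test in either direction, 0.654% higher and 1.57% lower with thymol. Of the 10 genes, 5 were measured higher and 5 lower, and the median log2 fold change was -0.0027, against 0.0026 over all genes. The median size of the change was 0.079 on the log2 scale, against 0.098 over all genes. None of the 10 had groups that did not overlap, which was the case for 1.68% of all genes. In bulk RNA such as this, fewer cells of a type and less RNA per cell cannot be told apart.

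All levels below are log2 CPM, that is, log2 read counts scaled to a common library size after TMM, and group means carry the SD over 6 libraries. Because a 3′ tag library gives about a read per transcript whatever its length, levels of different genes can be set side by side, within the limits of priming. In DMSO the genes ranged from Gsr at 33.6 CPM to Prdx1 at 1343 CPM (geometric means), which corresponded to 243 and 9484 reads per library.

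Nfe2l2 encodes the factor. In DMSO its lowest, median and highest levels were 7.86, 7.98 and 8.02, and with thymol they were 7.71, 7.85 and 8.12. The thymol libraries spanned a wider range than the DMSO libraries, with 4 of them below all DMSO libraries and 1, replicate 1, above all of them. The means were 7.96 ± 0.061 in DMSO and 7.87 ± 0.14 with thymol, a log2 fold change of -0.086 ± 0.061 (SE; 95% interval -0.21 to 0.037; limma, adjusted p = 0.654). In fold terms the interval ran from 0.865 to 1.03.

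Keap1 encodes the repressor that senses electrophiles. Its levels in DMSO were 6.44, 6.47 and 6.56 (lowest, median, highest), and with thymol 6.44, 6.63 and 6.86. Here 4 thymol libraries lay above every DMSO library and 1 lay below all of them. The means of 6.48 ± 0.044 and 6.63 ± 0.15 differed by 0.15 ± 0.076 on the log2 scale (95% interval -0.0075 to 0.30; limma, adjusted p = 0.463). This was the smallest p of the 10 genes, and its fold interval of 0.995 to 1.23 left room for a small rise but not for one of 1.5-fold. The interval left out 0 without thymol replicate 2 (0.17, 95% interval 0.012 to 0.33; limma, adjusted p = 0.394), without thymol replicate 4 (0.18, 0.026 to 0.34; limma, adjusted p = 0.302) and in odd-numbered libraries alone (0.24, 0.027 to 0.45; limma, adjusted p = 0.510). None of these passed the threshold over all genes.

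Nqo1 encodes the quinone reductase that is the textbook reporter of NRF2 activity. DMSO libraries lay at 5.59, 5.80 and 6.01 (lowest, median, highest) and thymol libraries at 5.22, 5.53 and 6.09. The thymol libraries fell on both sides of the controls, with 4 below the lowest and 2 above the highest DMSO library. The means were 5.78 ± 0.14 and 5.65 ± 0.34, a log2 fold change of -0.13 ± 0.11 (95% interval -0.35 to 0.095; limma, adjusted p = 0.744). The upper end of the interval corresponded to a 1.07-fold rise. An exact permutation interval, which borrows no spread from other genes, was wider, from -0.45 to 0.22, with an upper end of 1.16-fold.

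**Figure D1:**
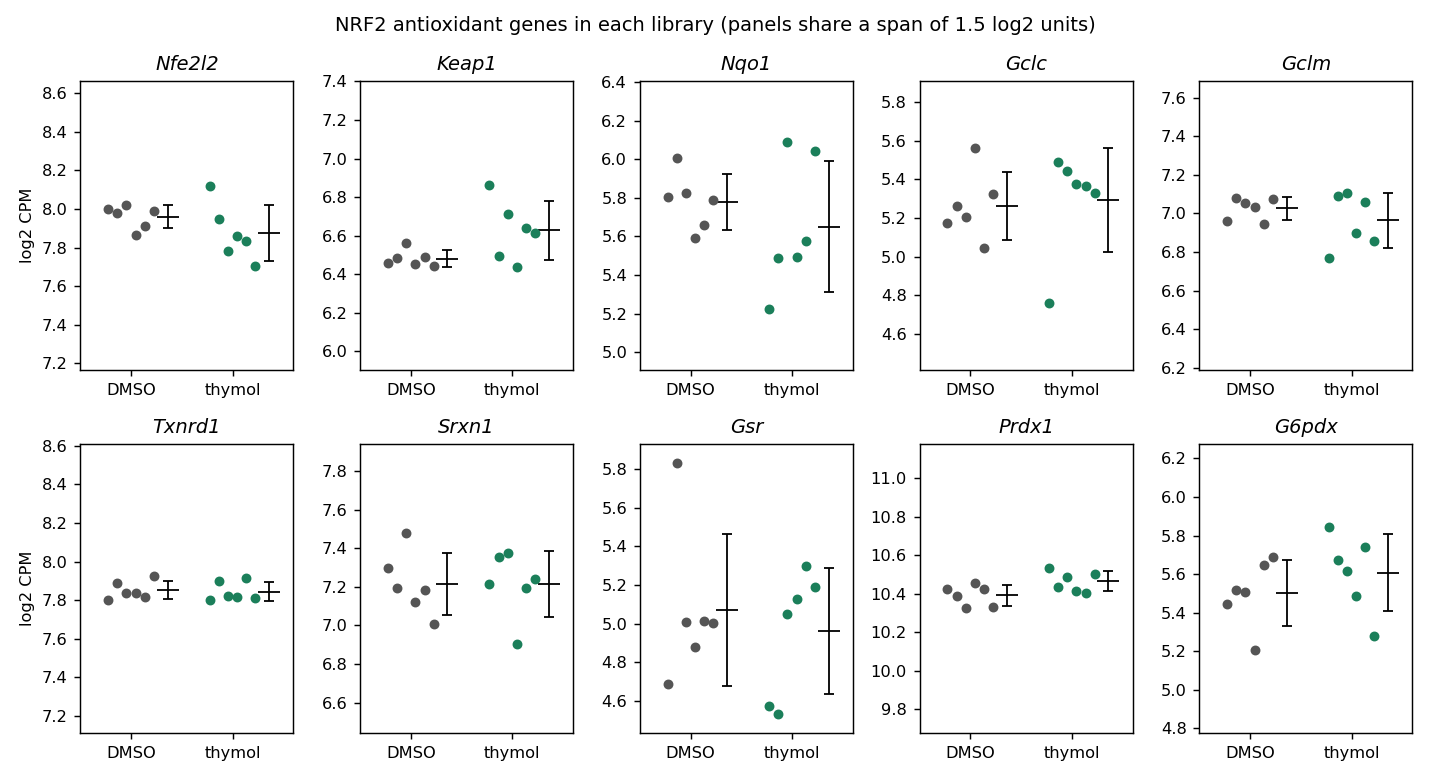
Level of each of the 10 genes in every library, in log2 CPM on the vertical axis. Points are single libraries in order of replicate number (grey, DMSO; green, thymol), and bars give the mean and SD over 6 libraries. The groups overlap in every panel, and Nqo1 with thymol spans 5.22 to 6.09 around a DMSO range of 5.59 to 6.01.

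Glutathione synthesis is limited by glutamate-cysteine ligase, whose catalytic subunit is encoded by Gclc and whose modifier subunit is encoded by Gclm. Gclc lay at 5.04, 5.23 and 5.56 in DMSO (lowest, median, highest) and at 4.76, 5.37 and 5.49 with thymol. Thymol replicate 1 was the lowest of all 12 libraries, and the other 5 thymol libraries lay inside the DMSO range. Gclc had a log2 fold change of 0.031 ± 0.12 (means 5.26 ± 0.18 and 5.29 ± 0.27; 95% interval -0.20 to 0.27; limma, adjusted p = 0.966). Without thymol replicate 1 it was 0.14 (limma, adjusted p = 0.704), and without DMSO replicate 5 it was -0.012.

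Gclm lay at 6.95, 7.04 and 7.08 in DMSO and at 6.77, 6.98 and 7.11 with thymol (lowest, median, highest). The groups overlapped, with 3 thymol libraries below and 2 above the DMSO range. Its log2 fold change was -0.062 ± 0.070 (means 7.03 ± 0.058 and 6.96 ± 0.14; 95% interval -0.20 to 0.078; limma, adjusted p = 0.826). Without thymol replicate 1, the lowest library, it was -0.023. The 2 subunits of the enzyme thus had log2 fold changes of opposite sign, neither of them larger than its error.

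Gsr encodes glutathione reductase, which returns oxidised glutathione to its reduced form with NADPH. It was the least abundant of the 10 genes, at 4.69, 5.01 and 5.83 in DMSO and 4.53, 5.09 and 5.30 with thymol (lowest, median, highest). DMSO replicate 2 stood above all other libraries, and 2 thymol libraries lay below the DMSO range. The log2 fold change of -0.11 ± 0.14 (means 5.07 ± 0.39 and 4.96 ± 0.33; 95% interval -0.40 to 0.18; limma, adjusted p = 0.861) changed sign without DMSO replicate 2, to 0.044 (limma, adjusted p = 0.962). Its interval was the widest of the 10, from 0.759-fold to 1.13-fold.

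The thioredoxin arm reduces protein disulfides and regenerates peroxiredoxins. Txnrd1, for cytosolic thioredoxin reductase, lay at 7.80, 7.84 and 7.92 in DMSO and at 7.80, 7.82 and 7.92 with thymol (lowest, median, highest). The ranges were nearly identical. Txnrd1 had a log2 fold change of -0.0069 ± 0.056 (means 7.85 ± 0.046 and 7.84 ± 0.051; 95% interval -0.12 to 0.11; limma, adjusted p = 0.987), and in fold terms the interval ran from 0.920 to 1.08.

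Srxn1 encodes sulfiredoxin, which repairs over-oxidised peroxiredoxins. Its levels were 7.01, 7.19 and 7.48 in DMSO and 6.91, 7.23 and 7.38 with thymol (lowest, median, highest). Only thymol replicate 4 lay outside the DMSO range, below it. For Srxn1 the log2 fold change was 0.0014 ± 0.075 (means 7.21 ± 0.16 and 7.22 ± 0.17; 95% interval -0.15 to 0.15; limma, adjusted p = 0.999).

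Prdx1, for the abundant cytosolic peroxiredoxin 1, had the highest level of the 10 genes. It lay at 10.32, 10.41 and 10.45 in DMSO and at 10.41, 10.46 and 10.53 with thymol (lowest, median, highest). No thymol library was below the DMSO range and 3 were above it. For Prdx1 the log2 fold change was 0.073 ± 0.044 (means 10.39 ± 0.054 and 10.46 ± 0.052; 95% interval -0.017 to 0.16; limma, adjusted p = 0.564), with a fold interval of 0.989 to 1.12.

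G6pdx encodes glucose-6-phosphate dehydrogenase, the entry enzyme of the pentose phosphate pathway and a main source of NADPH. Levels were 5.21, 5.51 and 5.69 in DMSO and 5.28, 5.65 and 5.85 with thymol (lowest, median, highest). The groups overlapped, with 2 thymol libraries above the DMSO range. Its log2 fold change was 0.11 ± 0.10 (means 5.50 ± 0.17 and 5.61 ± 0.20; 95% interval -0.10 to 0.32; limma, adjusted p = 0.789). The estimate was 0.047 without DMSO replicate 4 and 0.17 without thymol replicate 6, neither called. Ikbkg lies across G6pdx on the opposite strand and was also in the table, and the strand setting of the counting was not given in the sources used here, so the reads of the pair could not be told apart with certainty.

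The intervals bound the difference between these samples more tightly than the p-values alone convey. They rest on the same spread, which may be technical. For all 10 genes the limma 95% interval lay inside 2-fold in either direction, as it did for 96.8% of all genes. It also lay inside 1.5-fold for all 10 genes, against 79.2% of all genes, and inside 1.25-fold for 8 of them (all but Nqo1 and Gsr), against 41.4%. No interval left out 0, whereas 11.8% of all intervals did. The median distance from estimate to interval end was 0.15 on the log2 scale for the 10 genes and 0.25 over all genes, and the 10 genes had a higher median level (6.77 against 5.02 log2 CPM).

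The scale of these bounds can be read against the genes that did pass the test. The 238 called genes had a median change of 0.38 on the log2 scale, or 1.30-fold, and the smallest was 0.17. For 9 of the 10 genes the whole limma interval lay within 0.38 in either direction, the exception being Gsr. Apart from Txnrd1, Srxn1 and Prdx1, the intervals also held changes as large as the smallest called one, which at this replication could not be told from no change in these genes.

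**Figure D2:**
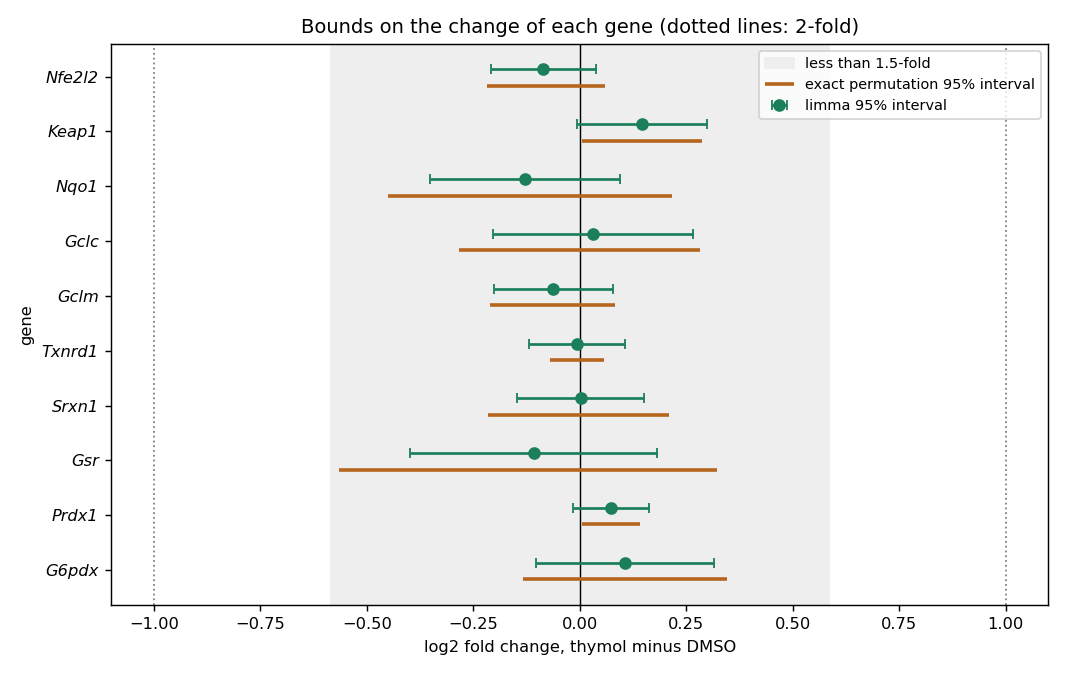
Log2 fold change of each gene, thymol minus DMSO, on the horizontal axis (green points, with limma 95% intervals) and the exact permutation 95% interval beneath it (orange). Shading marks changes under 1.5-fold and dotted lines mark 2-fold. All intervals of both kinds lie inside the shading, the longest being that of Gsr, from -0.57 to 0.32 by permutation.

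The moderated fit borrows spread from other genes, so each gene was also tested alone by relabelling the 12 libraries in all 924 ways (exact permutation test, two-sided, with 0.0022 as its smallest possible p). Keap1 (p = 0.0390, exact permutation) and Prdx1 (p = 0.0455, exact permutation) fell under 0.05 without adjustment, as did 11% of all genes. The permutation intervals were 0.0060 to 0.29 for Keap1 and 0.0040 to 0.14 for Prdx1, both higher with thymol. Against so large a share of the table, 2 of 10 is not a result about these genes. All 10 permutation intervals lay inside 1.5-fold, and 8 lay within 0.38 on the log2 scale.

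Library by library, the mean level of the 10 genes did not separate the groups. It ranged from 6.80 to 6.96 in DMSO and from 6.77 to 6.95 with thymol, with means of 6.85 ± 0.063 and 6.85 ± 0.069. Thymol replicate 1 stood apart within its group, a feature noticed after the values were seen. It had the highest thymol level for Nfe2l2, Keap1, Prdx1 and G6pdx and the lowest for Nqo1, Gclc, Gclm and Txnrd1.

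The median absolute distance of its 10 values from the other libraries of its group was 0.27 on the log2 scale, against 0.040 to 0.12 in the other 11 libraries. Over the 5394 genes with a mean above 5 log2 CPM, the same measure was 0.125 for this library. It was 0.101 to 0.122 for the other thymol libraries and 0.100 to 0.128 for the DMSO libraries. Across the table this library was thus the farthest of its group, by a small margin and inside the DMSO range. Its summed macrophage marker level was 14.58 log2 CPM, above the 14.33 to 14.42 of the other thymol libraries, and the part of this in the 10 genes was not tested.

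Without thymol replicate 1, Nfe2l2 had a log2 fold change of -0.14 (95% interval -0.25 to -0.016) with an unadjusted limma p of 0.0271 and a limma adjusted p of 0.316. The factor's own transcript was thus measured lower in the remaining libraries, but not past the threshold over all genes. Keap1 was 0.099 and Nqo1 -0.043 on the log2 scale without this library. None of the 10 genes was called without it.

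The SD was larger with thymol than with DMSO for 8 of the 10 genes. It was more than 2 times larger for Keap1 (3.50 times), Gclm (2.43 times), Nfe2l2 (2.38 times) and Nqo1 (2.37 times), while 9.61% of all genes had a ratio over 2. The median ratio was 1.35 for the 10 genes and 1.05 over all genes, and it was 1.14 for the 10 genes without thymol replicate 1. These ratios are descriptions without a test.

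**Figure D3:**
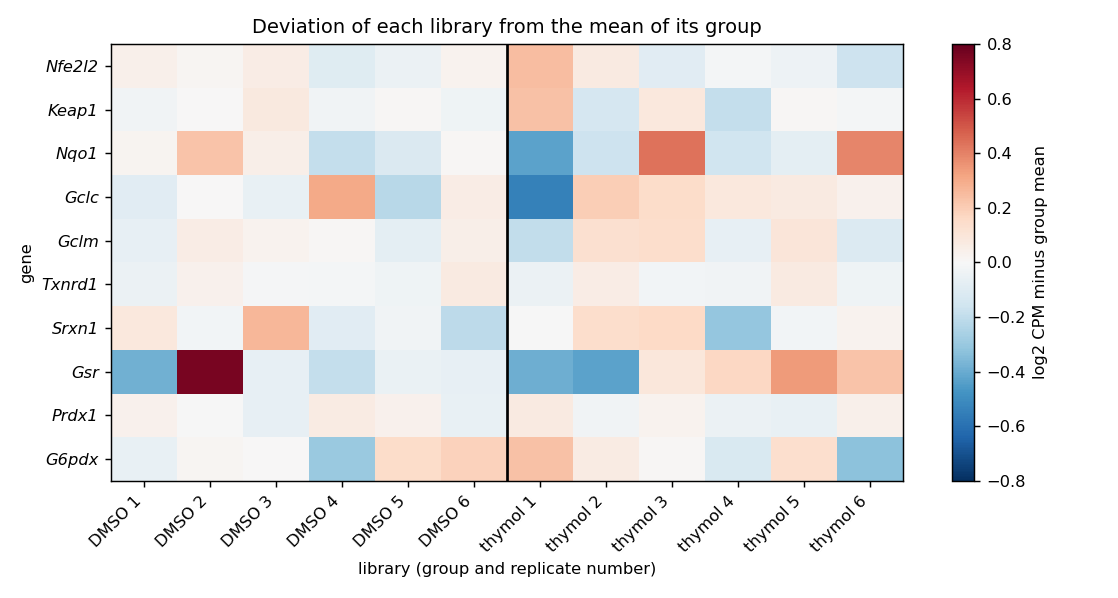
Distance of each library (columns, by group and replicate number) from the mean of its group for each gene (rows), coloured from blue (below) to red (above) in log2 CPM. Thymol replicate 1 is blue for Gclc, Nqo1 and Gclm and red for Nfe2l2, Keap1 and G6pdx, and DMSO replicate 2 is darkest for Gsr.

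Whether the 10 genes varied together among libraries was examined in the distances from the group means, over 12 libraries and 45 pairs of genes. Pearson's r ran from -0.67 to 0.72 with a median of -0.0024, and 22 pairs were positive. Both subunit genes of glutamate-cysteine ligase had the highest r, 0.72 for Gclc and Gclm (permutation p = 0.00456, adjusted over the 45 pairs 0.205), with a Spearman's rho of 0.64 (permutation p = 0.0172, adjusted 0.270). Leaving out the 2 libraries farthest from the median in Gclc, the first gene of the pair, lowered this r to 0.37. These were thymol replicate 1 and DMSO replicate 5.

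Gclm and Txnrd1 followed with r of 0.70 (permutation p = 0.0148, adjusted 0.334) and rho of 0.76 (permutation p = 0.00447, adjusted 0.201). Their r was 0.64 without the 2 libraries farthest from the median in Gclm, thymol replicates 1 and 6. No pair passed the adjustment by either measure, and 5 had an unadjusted p for r under 0.05. Common movement of the 10 genes between libraries was therefore not detectable at this number of libraries.

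The wider network was read in 6 lists of 114 further genes around NRF2, of which 105 were in the table. Of these 105 genes, 1 was called higher (0.952%, against 0.654% of all genes) and 4 lower (3.81%, against 1.57%), and the median log2 fold change was 0.0050. Because the lists were chosen with earlier results of these data known, these shares are a description and no independent test. In the list of NRF2 regulation, which held the ligase subunits, small MAF partners and related factors, all 15 genes were in the table and none was called. Mafg, a small MAF partner, had the smallest p of that list, with a log2 fold change of 0.13 ± 0.066 (7.36 ± 0.097 to 7.49 ± 0.13; limma, adjusted p = 0.442).

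Within the same list, Bach1, the haem-responsive repressor that competes for the same motif, had a log2 fold change of -0.035 ± 0.16 (4.30 ± 0.25 to 4.27 ± 0.33; 95% interval -0.36 to 0.29; limma, adjusted p = 0.972). Nfe2l1, the relative of NRF2 that governs proteasome genes, stood at -0.019 ± 0.059 (8.02 ± 0.088 in DMSO; 95% interval -0.14 to 0.098; limma, adjusted p = 0.956). Sqstm1, the autophagy receptor p62 that can sequester KEAP1, stood at 0.060 ± 0.051 (8.84 ± 0.060 to 8.90 ± 0.078; 95% interval -0.043 to 0.16; limma, adjusted p = 0.738). None of these 3 regulators passed the test.

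Hmox1, for the haem-degrading haem oxygenase 1, was the nearest to the threshold of the 6 targets and regulators named whatever their values. Its levels were 8.50, 8.59 and 8.79 in DMSO and 8.51, 8.79 and 8.89 with thymol (lowest, median, highest), and the groups overlapped. The log2 fold change was 0.13 ± 0.058 (95% interval 0.016 to 0.25; unadjusted p = 0.0267 and adjusted p = 0.318 in limma), with an upper bound of 1.19-fold. The exact permutation p was 0.0996. Leaving out thymol replicate 1, its lowest thymol library, gave a change of 0.18 (limma, adjusted p = 0.0692), still short of the threshold.

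Slc7a11, the cystine transporter subunit that feeds glutathione synthesis, had a log2 fold change of 0.10 ± 0.13 (5.05 ± 0.34 to 5.15 ± 0.28; 95% interval -0.16 to 0.37; limma, adjusted p = 0.851). Among 28 glutathione genes in the table, of 30 listed, 15 were measured higher and 13 lower, and 0 were called by limma, with 3 at an unadjusted p under 0.05, a limit met by 11.8% of all genes. The smallest p there belonged to Glrx, for glutaredoxin, at -0.30 ± 0.10 (5.95 ± 0.15 to 5.64 ± 0.23; limma, adjusted p = 0.112). The others under that limit, Glrx3 at 0.23 and Gstm1 at 0.22, were measured higher (limma, adjusted p = 0.245 and 0.200). Without thymol replicate 4 Glrx stood at -0.36 and passed the test (limma, adjusted p = 0.0375).

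Of 17 thioredoxin genes, 2 were called, both lower, where 1.57% of all genes were called lower. Txnip, for the thioredoxin-interacting protein that binds and inhibits thioredoxin, fell from 7.71, 7.79 and 8.02 in DMSO to 7.19, 7.53 and 7.64 with thymol (lowest, median, highest). All thymol libraries lay below all DMSO libraries. Txnip had a log2 fold change of -0.35 ± 0.068 (means 7.85 ± 0.13 and 7.50 ± 0.16; limma, adjusted p = 0.000705), or 0.783-fold.

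Prdx5, for an atypical peroxiredoxin of mitochondria, peroxisomes and cytosol, fell from 8.97, 9.05 and 9.34 to 8.79, 8.90 and 9.01 (lowest, median, highest). The groups overlapped, and the log2 fold change was -0.19 ± 0.055 (means 9.09 ± 0.13 and 8.89 ± 0.075; limma, adjusted p = 0.0422). DMSO replicate 4 was the highest library, and without it the change was -0.14 (limma, adjusted p = 0.206). Txn1, for thioredoxin itself, had a log2 fold change of 0.077 ± 0.055 (8.80 ± 0.082 to 8.87 ± 0.13; limma, adjusted p = 0.656).

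Among 16 genes of NADPH supply, 1 was called, where 2.22% of all genes were called in either direction. This was Idh1, for the cytosolic NADP-dependent isocitrate dehydrogenase. Its levels were 7.49, 7.55 and 7.64 in DMSO and 7.09, 7.24 and 7.37 with thymol (lowest, median, highest), and the groups did not overlap. The log2 fold change was -0.31 ± 0.064 (means 7.56 ± 0.067 and 7.25 ± 0.11; limma, adjusted p = 0.00148), or 0.805-fold. The count of 1 became 2 without DMSO replicate 2 or without DMSO replicate 6, where Nnt, for the mitochondrial transhydrogenase, passed as well. G6pdx, the NADPH-producing dehydrogenase among the 10 genes, was measured higher, short of the threshold.

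The detoxification list had 19 of 26 genes in the table, none called by limma and 5 at an unadjusted p under 0.05, against 11.8% of all genes. Its smallest p belonged to Cyp1b1, for a cytochrome of the aryl hydrocarbon response, at -0.17 ± 0.063 (7.47 ± 0.046 to 7.30 ± 0.10; limma, adjusted p = 0.168). Aldh1a1, also under that limit, was measured lower at -0.44 (limma, adjusted p = 0.259). The rest were measured higher: Hmox1 at 0.13, Ftl1 at 0.11 and Fth1 at 0.099 (limma, adjusted p = 0.318, 0.368 and 0.326). Of the 10 genes that make or remove superoxide and peroxide, Sod3 was called lower and Cybb higher, where 2.22% of all genes were called in either direction. Sod2 was measured lower without overlap of the groups, at -0.23 ± 0.070 (6.90 ± 0.068 to 6.67 ± 0.070; limma, adjusted p = 0.0680), short of the threshold. It passed after centring on library medians (limma, adjusted p = 0.0494) and among genes above 5 log2 CPM only (limma, adjusted p = 0.0395).

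Sod3, for the extracellular superoxide dismutase, fell from 7.16, 7.35 and 7.60 to 6.83, 7.01 and 7.22 (lowest, median, highest). The groups overlapped, and the log2 fold change was -0.37 ± 0.075 (means 7.38 ± 0.17 and 7.01 ± 0.16; limma, adjusted p = 0.00152). Cybb, for the superoxide-producing phagocyte oxidase subunit, rose from 8.76, 8.95 and 9.12 to 9.13, 9.19 and 9.23 (lowest, median, highest). Here all thymol libraries lay above all DMSO libraries, and the log2 fold change was 0.23 ± 0.053 (means 8.96 ± 0.13 and 9.19 ± 0.038; limma, adjusted p = 0.00607).

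**Figure D4:**
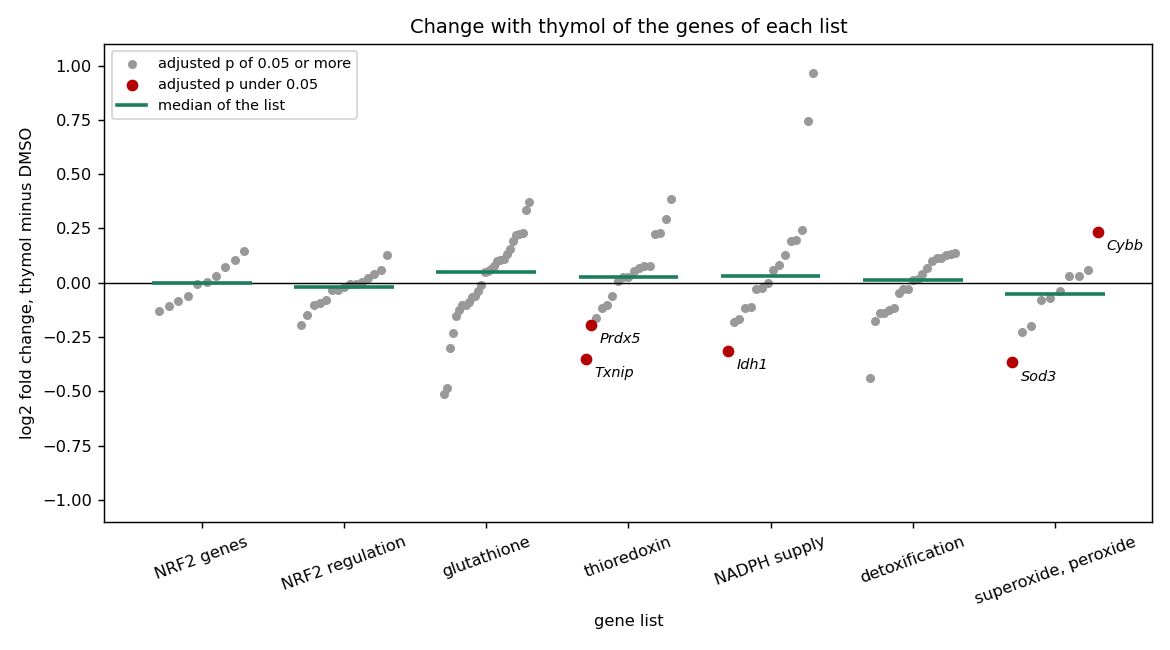
Log2 fold change, thymol minus DMSO, of every gene in the table for the 10 NRF2 genes and the 6 wider lists, with list medians as green bars. Red points are the 5 genes past the threshold in limma (Txnip, Prdx5, Idh1 and Sod3 lower, Cybb higher), and the 10 NRF2 genes lie between -0.13 and 0.15.

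The labelled cell type was checked against marker lists. Of 22 fibroblast markers 20 were in the table (Lum and Fap were not), with a median level of 8.13 log2 CPM. All 20 macrophage markers were also in the table, with a median of 8.18, while 2 of 8 endothelial, 1 of 8 epithelial, 2 of 8 muscle and 0 of 8 lymphocyte markers were. The libraries therefore held macrophage transcripts at levels like those of fibroblast transcripts.

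The fibroblast markers' mean level ranged from 8.02 to 8.12 in DMSO and from 7.93 to 8.02 with thymol, with no overlap between the groups, while their summed level, 14.34 to 14.43 in DMSO and 14.25 to 14.35 with thymol, overlapped. The macrophage markers' mean level ranged from 8.32 to 8.39 in DMSO and from 8.27 to 8.42 with thymol, and their summed level from 14.31 to 14.45 and from 14.33 to 14.58, so that the groups overlapped on both measures. The 2 muscle markers had summed levels of 7.05 to 7.32 in DMSO and 6.54 to 6.97 with thymol, with no overlap. Their mean level, 4.75 to 5.31 in DMSO and 4.14 to 5.21 with thymol, overlapped. Against 2.22% of all genes, 2 of 20 fibroblast markers were called lower, 1 of 20 macrophage markers higher and 2 lower, and 1 of 2 muscle markers lower. Cybb is itself a gene of phagocytes. The part of cell composition in the values of the 10 genes and of the wider lists was not tested.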

How the data were processed

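RNA of 6 thymol and 6 DMSO libraries was profiled with QuantSeq, a 3′ tag method. The authors aligned reads to GRCm38 with STAR 2.5.3 and counted them per gene with HTSeq 0.6.1 (versions from the submitters' processing notes), removed low genes, and scaled libraries by TMM. The deposited table held log2 CPM with a prior count, which pulls the fold changes of low genes towards 0. Whole reads recovered from it (100% of values under 200 reads within 0.02 of a whole number) summed to 5435985 to 9049796 per library, and they bear on counting error only.

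Groups were compared with limma 3.58.1 in R 4.3.3 (mean-variance trend, no covariate, all 12 libraries), because the table holds log2 values, and the study's count model was not refitted on the recovered reads. The p-values were two-sided, adjusted by Benjamini-Hochberg over 10697 genes, with a threshold of 0.05, and intervals were limma's 95%. Fold changes are thymol minus DMSO on the scale of log2 CPM with the prior. The fit was tested on simulated data. Genes named beyond the 10 were those called in each of the 6 wider lists, the gene with the smallest p of each list, and Hmox1, Slc7a11, Txn1, Sqstm1, Nfe2l1 and Bach1. Sod2, Nnt, Aldh1a1, Ftl1, Fth1, Glrx3 and Gstm1 were named after their values were seen. The genes and lists were chosen with earlier results of these data known. Alternatives were other normalizations, filters, pseudocounts and variance models, voom on recovered reads, odd- or even-numbered libraries, a replicate block, and leaving out each library. The exact permutation interval and the interaction with odd or even number were added after seeing the data.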

Additional observations from a re-analysis of the deposited data

Results flagged for a closer look

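In 52 groups of 6 values (each named gene, the mean of the 10 genes and the read total, in each treatment group), Dixon's test for a single distant library marked 5, where chance marks about 1 in 20 groups, or 2.6. Thymol replicate 1 had a Gclc level of 4.76 log2 CPM, below the other thymol libraries, and its Txnip level of 7.19 was likewise the lowest. DMSO replicate 2 had a Gsr level of 5.83, above the other DMSO libraries. DMSO replicate 4 had a Prdx5 level of 9.34, above the other DMSO libraries. Thymol replicate 5 had the largest read total, 9049796.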

How the results depend on the processing

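None of the 10 genes was called in any of the 25 alternatives, and all 10 intervals stayed inside 2-fold in each. In 4 of them an interval left out 0, that of Keap1 in 3 and of Nfe2l2 in 1. The lowest bound was -0.65 (Gsr, even-numbered libraries) and the highest 0.47 (G6pdx, odd-numbered libraries). The count of called genes was 238, and it was 57 without the mean-variance trend, 70 in odd-numbered libraries and 172 to 270 when a library was left out. The trend also carried the 5 named calls: without it Txnip, Prdx5, Idh1, Sod3 and Cybb missed the threshold with the same fold changes. Idh1 was not called in even-numbered libraries (-0.25), Sod3 in odd-numbered (-0.37) or Cybb in either (0.29 odd, 0.18 even), where fewer samples entered, and Prdx5 kept its call in 14 of the 25. Of the 10 genes, 2 had an exact permutation p under 0.05, 0 after centring on library medians, 1 after quantile normalization and 0 to 2 without a library. Pairs of genes past the adjustment numbered 0, and 0 to 1 without a library. The sign turned for Txnrd1 (0.026 in odd-numbered libraries, 0.0099 after quantile normalization), Srxn1 (-0.0077 with array weights, -0.059 in odd-numbered libraries, -0.0094 centred, -0.0032 with voom), Gsr (0.072 in odd-numbered libraries) and Slc7a11 (-0.25 in even-numbered libraries). When a library was left out the change ran from -0.012 to 0.14 for Gclc, -0.021 to 0.0078 for Txnrd1, -0.040 to 0.063 for Srxn1, -0.19 to 0.044 for Gsr, -0.014 to 0.18 for Slc7a11, -0.051 to 0.0097 for Nfe2l1 and -0.12 to 0.079 for Bach1. It kept its sign for Nfe2l2 (-0.14 to -0.052), Keap1 (0.099 to 0.18), Nqo1 (-0.22 to -0.043), Gclm (-0.091 to -0.023) and G6pdx (0.047 to 0.17). The cause of these changes was not tested. The 4 genes with the fewest reads (Gsr, Gclc, G6pdx and Nqo1) had the 4 widest intervals, and lower genes were bounded less tightly. Libraries of the same number correlated at -0.051 to 0.27, not above 0.1 in every pair, and not each library matched its own number best, so the numbers were not used as pairs. With a replicate block 332 genes and 0 of the 10 were called.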

Other observations

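Nnt, for the mitochondrial transhydrogenase that makes NADPH from NADH, had the largest log2 fold change among the genes of NADPH supply. It was singled out after its values were seen. Its level was 1.90 ± 0.63 log2 CPM in DMSO and 2.86 ± 0.34 with thymol (SD, n = 6), from 26.7 and 47.7 reads per library on average. The log2 fold change was 0.96 ± 0.30 (95% interval 0.37 to 1.56; limma, adjusted p = 0.0715), short of the threshold. It passed without DMSO replicate 2 (1.10; limma, adjusted p = 0.0439) or without DMSO replicate 6 (1.09; limma, adjusted p = 0.0487), and in no other of the alternatives run. C57BL6/j mice are known to carry a deletion within Nnt, and a 3′ tag cannot show whether the transcript was complete.

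The response was also compared between odd- and even-numbered libraries. Within each group the odd-numbered libraries also had consecutive library names, as did the even-numbered ones, and what that order reflects was not stated. An interaction of thymol with this split was called for 0 of 10697 genes in limma, with 531 at an unadjusted p under 0.05, about as many as chance alone gives. Slc7a11 was among the latter, at 0.46 in odd-numbered and -0.25 in even-numbered libraries on the log2 scale (unadjusted p = 0.0054 and adjusted p = 0.992 in limma). Gsr had changes of 0.072 and -0.29 in the same libraries.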
